A study of Mus musculus with 6 samples.

Results

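Kinases of 4 small serine/threonine kinase families, with some members known for being controlled through their own transcription, were followed in depolarised neurons: the polo-like kinases Plk2 and Plk3, the serum- and glucocorticoid-regulated kinases Sgk1 and Sgk3, the Pim kinases Pim1, Pim2 and Pim3, and the salt-inducible kinases Sik1, Sik2 and Sik3. The members were taken by gene symbol, matched to the Ensembl identifiers of the deposited files. All 10 were found among the 22667 genes listed, and all 10 were among the 15895 genes with enough reads to test. The cells were primary hippocampal neurons of C57bl/6 mouse embryos (E16.5), grown for 10 days in culture. The 3 groups were sequenced with 2 libraries each: neurons without KCl (untreated), neurons after 0.5 h in 55 mM KCl and neurons after 3 h in 55 mM KCl. Raised KCl depolarises the membrane and opens calcium channels, and all groups shared strain, tissue and culture age. The study's description calls the libraries biological duplicates but does not say whether cultures or animals were separate, so the p-values refer to the spread among these libraries, which may be technical in part.

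Pim kinases have no regulatory domain and are active once translated, so their amount largely sets their activity. Sgk kinases belong to the AGC group with Akt. They are switched on by PDK1 and mTORC2 downstream of PI3 kinase and act on channels, transporters and the ubiquitin ligase Nedd4l. Plk2 is known in hippocampal neurons as an activity-induced kinase that phosphorylates the spine protein SPAR (gene Sipa1l1) and weakens overactive synapses. Sik kinases are relatives of AMPK that are activated by LKB1 (gene Stk11). They phosphorylate the CREB coactivators of the Crtc family and class IIa histone deacetylases and hold both in the cytoplasm, and Sik1 itself is a known CREB target.

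Start-site sequences are shown because CREB is the best known link between depolarisation and transcription in neurons. RefSeq promoters (build GRCm38.p6, 250 bases before to 50 bases after the annotated start) were at hand for 8 of the 10 genes and 14 starts, 6 of them of Sgk1 and 2 of Pim1. No promoter was used for Sgk3 or Sik1. The motifs searched were the full cAMP response element TGACGTCA, its shorter core TGACG on either strand, the CArG box bound by serum response factor on either strand, and TATAAA on the gene's strand. A full element contains 2 overlapping cores, 1 on each strand. Printed 5′ to 3′ on the gene's strand, with motifs in capitals, are the promoters of both Plk genes, of both Sik genes at hand, and the upstream of the 2 Pim1 starts: Plk2 at chr13:110394794-110395093 (plus strand), Plk3 at chr4:117133914-117134213 (minus strand), Sik2 at chr9:51009024-51009323 (minus strand), Sik3 at chr9:46012570-46012869 (plus strand) and Pim1 at chr17:29490535-29490834 (plus strand).
Plk2: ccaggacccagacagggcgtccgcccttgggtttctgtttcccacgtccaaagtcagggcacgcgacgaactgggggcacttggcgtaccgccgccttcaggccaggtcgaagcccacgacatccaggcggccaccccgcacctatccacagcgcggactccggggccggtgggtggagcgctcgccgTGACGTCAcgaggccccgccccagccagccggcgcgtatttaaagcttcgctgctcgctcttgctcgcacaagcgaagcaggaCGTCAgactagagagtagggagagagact
Plk3: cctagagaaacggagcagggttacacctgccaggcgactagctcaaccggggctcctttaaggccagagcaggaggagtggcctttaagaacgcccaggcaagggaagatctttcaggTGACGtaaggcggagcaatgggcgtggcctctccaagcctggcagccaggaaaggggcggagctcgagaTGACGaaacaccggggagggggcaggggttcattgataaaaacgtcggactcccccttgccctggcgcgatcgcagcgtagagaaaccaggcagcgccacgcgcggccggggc
Sik2: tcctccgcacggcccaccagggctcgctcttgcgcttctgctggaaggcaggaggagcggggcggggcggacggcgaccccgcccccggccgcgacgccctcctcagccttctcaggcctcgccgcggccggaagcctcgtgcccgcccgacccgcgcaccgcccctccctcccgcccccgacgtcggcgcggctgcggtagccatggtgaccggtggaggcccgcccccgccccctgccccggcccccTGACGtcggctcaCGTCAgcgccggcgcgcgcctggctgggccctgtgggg
Sik3: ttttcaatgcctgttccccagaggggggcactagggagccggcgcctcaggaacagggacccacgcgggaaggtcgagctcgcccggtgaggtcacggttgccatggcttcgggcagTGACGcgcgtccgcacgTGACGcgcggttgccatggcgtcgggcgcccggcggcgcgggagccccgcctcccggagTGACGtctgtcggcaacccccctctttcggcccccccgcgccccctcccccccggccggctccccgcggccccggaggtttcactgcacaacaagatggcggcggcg
Pim1: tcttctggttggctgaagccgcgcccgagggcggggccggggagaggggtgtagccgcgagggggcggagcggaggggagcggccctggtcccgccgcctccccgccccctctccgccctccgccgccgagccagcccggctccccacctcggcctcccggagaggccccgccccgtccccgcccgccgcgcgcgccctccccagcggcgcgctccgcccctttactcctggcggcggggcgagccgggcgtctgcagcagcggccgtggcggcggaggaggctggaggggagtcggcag

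The Plk2 promoter held the full cAMP response element, with its first base at -62 counted from the start base as 0. It was the single one of the 14 promoters with that element, which is found in 1.79% of all 32851 RefSeq promoters of this length. The core was present in 5 promoters, those of Plk2, Plk3, Sik2, Sik3 and 1 of the Sgk1 starts, against 20.8% of all promoters. Sik3 and Plk2 had 3 cores each, and Plk3 and Sik2 had 2 each. Of the Plk2 cores 2 lay within its full element and 1 apart from it, at 21. No CArG box was found in any of the 14 (1.63% of all promoters hold one), and TATAAA was present at 2 of the Sgk1 starts (8.32% of all promoters). The Pim promoters held none of the 4 motifs. These are matches of letters and say nothing of binding in these cells.

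The 3′ ends of the transcripts were compared as well, since short-lived kinase messages often carry AU-rich elements, to which decay factors bind. The core TATTTAT was counted on the sense strand in 1 annotated 3′ UTR per gene (GENCODE M21, the transcript with the longest coding part). It was present in 6 of the 10 genes, against 25% of 19676 genes with an annotated 3′ UTR. Pim1 had 4 copies, Plk3 had 3, Plk2, Pim3 and Sgk3 had 2 each and Sgk1 had 1, while Pim2 and the 3 Sik genes had none. Longer ends hold the core more often: among genes whose 3′ UTR was within 1.25-fold of the same length the share was 8.46% for Plk3, 17.5% for Plk2, 32.4% for Pim1 and 42.3% for Sik3. Sites of 29 bases are printed with the core in capitals, the overlapping copies of Pim1 beside single copies in Plk2, Plk3 and Sgk1.
Pim1: tttaatgTATTTATTTATTTATTTATttg
Plk2: aataaacttttTATTTATtacagccccaa
Plk3: ctagggggcatTATTTATggaccactttt
Sgk1: aaaacgggcatTATTTATgttttttttcc

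Depth was high, with 98882007 to 141865913 counts per library, so counting error was small beside the difference between replicates. The pan-neuronal markers Tubb3, Map2, Rbfox3, Snap25 and Syt1 were all expressed, with a summed level of 688 to 867 cRPKM at 3 h, 1080 to 1201 at 0.5 h and 1177 to 1260 in untreated neurons. Tubb3 had 253 and 158 cRPKM at 3 h against 607 and 453 in untreated neurons, a log2 change of -1.30 ± 0.33. The log2 changes of Syt1, Rbfox3, Snap25 and Map2 were -0.48, -0.40, -0.12 and -0.09. The 4 excitatory neuron markers summed to 295 and 266 cRPKM at 3 h, 354 and 461 at 0.5 h and 366 and 512 in untreated neurons. The cRPKM is the authors' read count per kilobase, scaled to the size of the library. Astrocyte and interneuron markers were expressed too. The libraries numbered 2 stood apart from those numbered 1 in every group, with the widest gap in cRPKM among the markers in Gfap. The astrocyte marker Gfap had 22.4 cRPKM in untreated replicate 1 and 307 in replicate 2. The same pair was 22.8 and 335 after 0.5 h, and 24.6 and 475 after 3 h. The 5 astrocyte markers summed to 676 and 1407 cRPKM at 3 h, 617 and 1014 at 0.5 h and 608 and 918 in untreated neurons. Without Gfap the other 4 summed to 652 and 932 cRPKM at 3 h, 594 and 679 at 0.5 h and 585 and 611 in untreated neurons. The 4 interneuron markers summed to 241 and 349 cRPKM at 3 h, 307 and 511 at 0.5 h and 319 and 531 in untreated neurons. None of the 5 pan-neuronal, 4 excitatory neuron, 4 interneuron or 5 astrocyte markers passed the test at 3 h. Tubb3 was close to the threshold (adjusted p = 0.051, edgeR). At an unadjusted p under 0.05, 1 pan-neuronal, 1 excitatory neuron and 1 interneuron marker were lower and 1 astrocyte marker was higher. The 6 markers of the oligodendrocyte lineage summed to 69.1 and 73.3 cRPKM at 3 h, 49.8 and 53.1 at 0.5 h and 60.6 and 53.4 in untreated neurons. None of these 6 passed at 3 h, where Olig2 had a log2 change of 0.52 and Mog of -0.98. The 4 fibroblast markers summed to 25.9 to 43.1 cRPKM over the 6 libraries, while microglial and endothelial markers summed to at most 1.16 and 0.42 cRPKM. Fibroblast markers, low except for Dcn, also differed between replicates. In untreated neurons Col1a1, Col1a2 and Lum had 0.14, 0.04 and 0.49 cRPKM in replicate 1 and 1.87, 2.05 and 1.01 in replicate 2. Dcn went the other way, with 40.9 and 23.4. The part of these other cells in the results was not tested. In such bulk samples fewer cells of a type and less RNA per cell cannot be told apart.

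In untreated neurons the 10 kinases spanned a wide range of levels in cRPKM. Plk2 was the highest, at 41.0 ± 3.1 cRPKM (SD, n = 2), and Sgk3 and Pim1 were the lowest, at 2.11 ± 0.092 and 2.09 ± 0.13 cRPKM. Pim2 (17.7 cRPKM), Sik3 (15.5), Pim3 (13.0), Sik2 (9.76), Plk3 (8.55), Sik1 (6.53) and Sgk1 (6.06) lay between them, where the median tested gene stood at 7.81 cRPKM. Neighbours in that order had separate libraries except Sik1 and Sgk1, and Sgk3 and Pim1, which overlapped. After 0.5 h Sik1 stood next below Plk2 and Pim2, with libraries apart from those of Pim2 and of Sik3. At 3 h the order was Plk2, Sik3, Sik1, Sik2, Pim2, Sgk1, Pim3, Plk3, Pim1 and Sgk3. Neighbours overlapped there for Sik1 and Sik2, for Sgk1 and Pim3, and for Plk3 and Pim1. Pim2, which was second in untreated neurons, stood below all 3 Sik genes at 3 h.

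**Figure D1:**
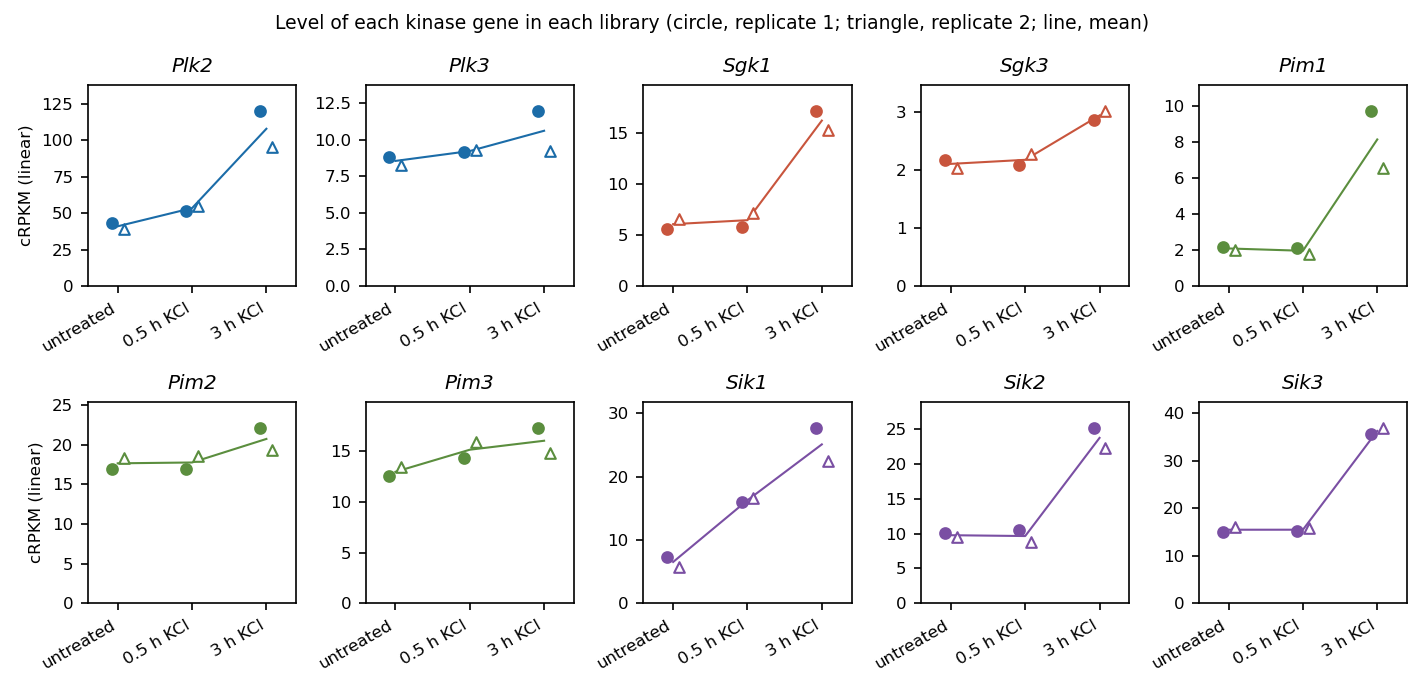
Level of each of the 10 kinase genes in cRPKM on a linear axis from 0, in untreated neurons and after 0.5 h and 3 h of KCl; circles are replicate 1, triangles replicate 2 and lines join group means. Sik1 is already at 16.0 and 16.6 cRPKM at 0.5 h, while the 0.5 h libraries of Pim1, Sgk1, Sik2 and Sik3 overlap the untreated ones and both their 3 h libraries lie above.

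After 0.5 h of KCl none of the 10 kinases passed edgeR's quasi-likelihood test at a Benjamini-Hochberg adjusted p of 0.05. The test was strict at that time: of all 15895 genes 0.0377% were called higher and 0% lower. At an unadjusted p under 0.05, 1 kinase was higher (Sik1) and 0 were lower. DESeq2 called 1 kinase higher, also Sik1, and limma on log2 cRPKM values called 0. The median log2 difference of the 10 was 0.05, against 0.00 over all genes tested.

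Sik1 (ENSMUSG00000024042), the salt-inducible kinase known as a CREB target, had the largest early difference of the 10. It stood at 7.28 and 5.78 cRPKM in untreated neurons, 16.0 and 16.6 at 0.5 h and 27.7 and 22.5 at 3 h. The libraries of the 3 groups did not overlap, and the level was higher at each later time. At 0.5 h against untreated the log2 difference was 1.30 ± 0.17, or 2.45-fold, with an adjusted p of 0.334 in edgeR (18th smallest p of all genes tested). DESeq2 gave 1.29 ± 0.20 with an adjusted p of 1.74e-07, and over all alternatives the adjusted p ran up to 1. Within libraries of the same replicate number the log2 ratio of cRPKM was 1.13 (number 1) and 1.52 (number 2). At 3 h Sik1 rose 4.01-fold against untreated (log2 change 2.00 ± 0.18, adjusted p = 0.00634, edgeR). At 3 h against 0.5 h the difference was 0.71 ± 0.17 (adjusted p = 0.0555, edgeR; 0.00324, DESeq2; 0.0495 without a filter on low counts).

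Plk2 (ENSMUSG00000021701) was the other kinase with separated libraries and a difference above 0.3 on the log2 scale at 0.5 h. It had 43.2 and 38.8 cRPKM in untreated neurons, 51.7 and 55.1 at 0.5 h and 120 and 95.5 at 3 h. Each later group lay above the one before it, with the widest spread at 3 h. The early difference of 0.36 ± 0.16 did not pass (adjusted p = 1), and the rise at 3 h was 2.74-fold against untreated (1.46 ± 0.16, adjusted p = 0.00858, edgeR). Pim3, with 14.4 and 16.0 cRPKM at 0.5 h against 12.5 and 13.4 in untreated neurons, and Plk3, with 9.14 and 9.30 against 8.81 and 8.28, were also separated by libraries. That made 4 of the 10 with both 0.5 h libraries higher and 0 with both lower, where 14.8% of all genes had both higher and 6.38% both lower. For Pim3 the log2 difference was 0.20 ± 0.13 and for Plk3 0.09 ± 0.16.

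The other 6 kinases had libraries that overlapped those of untreated neurons at 0.5 h. Their log2 differences ran from -0.11 ± 0.25 for Pim1 to 0.07 ± 0.15 for Sgk1, with -0.04 ± 0.14 for Sik2 and -0.02 ± 0.09 for Sik3. Of 12 known activity response genes measured in the same libraries, 4 were called higher at 0.5 h and 11 at 3 h. Their median log2 change was 3.08 at 0.5 h and 2.62 at 3 h. At an unadjusted p under 0.05 by edgeR, 10 of the 12 were higher at 0.5 h. At 3 h they were led in adjusted p by Fos, Nr4a1 and Dusp1, with changes of 5.32, 4.35 and 2.47.

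After 3 h of KCl, 7 of the 10 kinases rose and 0 fell by edgeR's test, where 8.71% of all genes tested were called higher and 6.84% lower. The risers were Pim1, Sik1, Sgk1, Plk2, Sik2, Sik3 and Sgk3, from every one of the 4 families. Over all genes 1384 were called higher and 1088 lower, but with library totals as the scale 1115 genes were higher and 1340 lower, along with 6 of the 10 kinases higher and 0 lower. All 10 had both 3 h libraries above both untreated ones, as did 24.1% of all genes, and 35.9% of all genes had both below. The median log2 change of the 10 was 1.31, against -0.02 over all genes tested. The 10 had been chosen with earlier results of these data known.

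**Figure D2:**
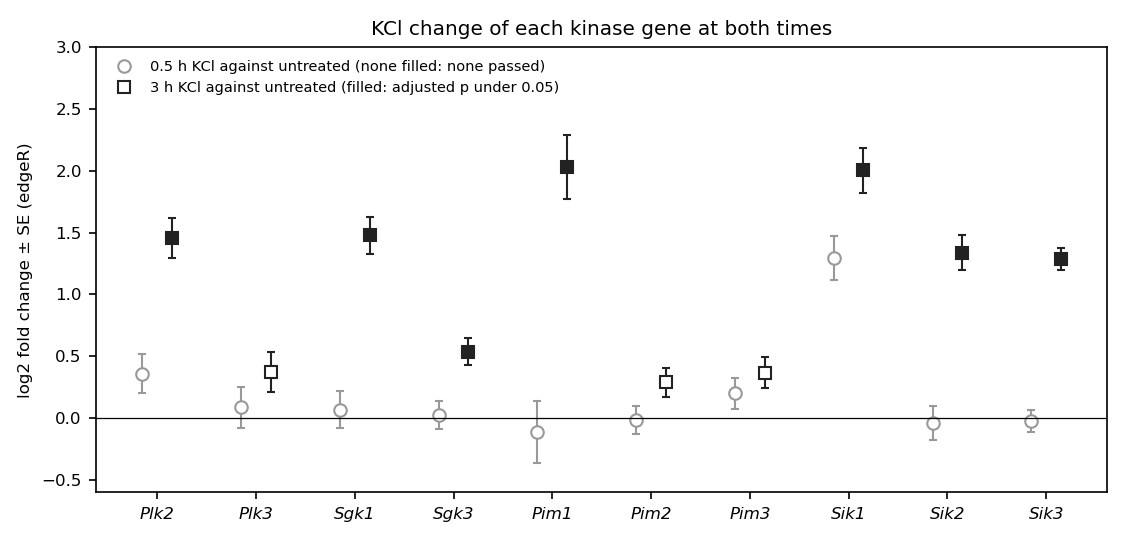
Log2 fold change of each kinase gene against untreated neurons with the standard error of the edgeR fit, at 0.5 h (grey circles) and 3 h (black squares); filled symbols passed at an adjusted p under 0.05. The 3 h values run from 0.29 for Pim2 to 2.03 for Pim1, and at 0.5 h Sik1 stands alone at 1.30.

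Pim1 (ENSMUSG00000024014), the founding member of its family and a known target of cytokine signalling through STAT factors, had the largest fitted fold at 3 h. The lead over Sik1 (log2 change 2.00 ± 0.18) was smaller than either error, and within libraries numbered 2 Sik1 had the larger ratio. Pim1 levels were 2.18 and 2.00 cRPKM in untreated neurons, 2.13 and 1.79 at 0.5 h and 9.75 and 6.56 at 3 h. The 3 h libraries lay well above the other 4, which overlapped, and differed from each other by more than the untreated level itself. The change was 4.08-fold (2.03 ± 0.26, adjusted p = 0.0108, edgeR). Its relatives did not pass: Pim2 (ENSMUSG00000031155), widely expressed in lymphoid cells, had 22.1 and 19.4 cRPKM at 3 h against 17.0 and 18.3 in untreated neurons (0.29 ± 0.12, adjusted p = 0.142). Pim3 (ENSMUSG00000035828) had 17.3 and 14.8 against 12.5 and 13.4 (0.37 ± 0.13, adjusted p = 0.103). An annotated antisense gene, Gm26885, overlaps 488 exonic bases of Pim1, and the library kit does not mark the strand, so its reads cannot be told from those of Pim1.

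Sgk1 (ENSMUSG00000019970), a glucocorticoid- and serum-induced kinase that raises the surface level of ion channels, had 5.55 and 6.56 cRPKM in untreated neurons, 5.75 and 7.14 at 0.5 h and 17.2 and 15.2 at 3 h. Untreated and 0.5 h libraries overlapped and both 3 h libraries were higher. The rise was 2.79-fold against untreated (1.48 ± 0.15, adjusted p = 0.00754, edgeR). Sgk3 (ENSMUSG00000025915), which is recruited to endosomes by a lipid-binding PX domain, rose by less: it had 2.17 and 2.04 cRPKM in untreated neurons, 2.08 and 2.27 at 0.5 h and 2.86 and 3.02 at 3 h. That is 1.45-fold (0.54 ± 0.11, adjusted p = 0.0329). It was the one of the 7 whose call was lost under a setting that keeps all 6 libraries, with an adjusted p of 0.0527 when scaled by library totals, and 0.0668 in limma on log2 cRPKM values, and it had 0.0542 without 3 h replicate 2.

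Sik2 and Sik3, the larger relatives of Sik1 with roles in metabolism and, for Sik3, in sleep need, both rose at 3 h. Sik2 (ENSMUSG00000037112) had 10.0 and 9.51 cRPKM in untreated neurons, 10.5 and 8.82 at 0.5 h and 25.1 and 22.3 at 3 h. Sik3 (ENSMUSG00000034135) had 14.9 and 16.1 in untreated neurons, 15.2 and 15.8 at 0.5 h and 35.7 and 36.9 at 3 h. In both genes the untreated and 0.5 h libraries overlapped and both 3 h libraries lay far above them. Sik2 rose by 1.34 ± 0.14 (2.53-fold, adjusted p = 0.00768) and Sik3 by 1.28 ± 0.09 (2.43-fold, adjusted p = 0.00406, edgeR), the smallest adjusted p of the 10. Sik2 shares 1429 exonic bases with Ppp2r1b, a phosphatase subunit gene on the opposite strand. Ppp2r1b had 12.9 and 14.2 cRPKM at 3 h against 7.40 and 6.35 in untreated neurons and rose by 1.03 ± 0.13 (adjusted p = 0.0108). Reads in the shared stretch cannot be assigned to 1 of these 2 genes, and how many there are was not tested.

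Plk3 (ENSMUSG00000028680), a stress-responsive relative of Plk2, had 11.97 and 9.24 cRPKM at 3 h against 8.81 and 8.28 in untreated neurons. Plk3 shares 84 exonic bases with Tctex1d4 on the opposite strand, which had at most 0.06 cRPKM in any library. The 3 h libraries of Plk3 differed by more than the group means did, and the difference of 0.37 ± 0.16 did not pass (adjusted p = 0.171, edgeR). Without 3 h replicate 2, Plk3, Pim3 and Pim2 were called higher (adjusted p = 0.0314, 0.0375 and 0.0498), which made 9 kinases called. A lone untreated library is assumed to vary like the other groups: without untreated replicate 1 Sik1 alone was called (adjusted p = 0.0429), and without untreated replicate 2 none was. The log2 changes of the 7 were kept in sign in all of these fits, from 1.66 to 2.33 for Pim1, 1.80 to 2.19 for Sik1, 1.23 to 1.66 for Plk2, 1.34 to 1.61 for Sgk1, 1.202 to 1.48 for Sik2, 1.24 to 1.32 for Sik3 and 0.48 to 0.59 for Sgk3. Without either 0.5 h library 6 were called, Sgk3 being the one lost. Taken within libraries of the same replicate number, the log2 ratio of cRPKM at 3 h to untreated was 2.16 and 1.71 for Pim1, 1.93 and 1.96 for Sik1, 1.48 and 1.30 for Plk2, 1.63 and 1.22 for Sgk1, 1.33 and 1.23 for Sik2, 1.26 and 1.20 for Sik3 and 0.40 and 0.57 for Sgk3 (number 1, then number 2). Within each replicate number the pan-neuronal, excitatory neuron and interneuron sums were lower at 3 h than in untreated neurons. The astrocyte and oligodendrocyte lineage sums were higher. These shifts run beside the kinase changes, and Tubb3 had the largest log2 change of the pan-neuronal markers.

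Setting 3 h against 0.5 h also tests whether the KCl effect differed between the times, since both are measured from the same untreated libraries. Those libraries carry no time, so a change with time or handling alone cannot be told apart from a changed KCl effect. Of the 10 kinases 6 were higher at 3 h and 0 lower, where 6.39% of all genes were called higher and 4.87% lower. That is 1015 genes higher and 774 lower, and 762 and 1037 with library totals as the scale. Those higher were Pim1 (2.14 ± 0.26, adjusted p = 0.0134), Sgk1 (1.41 ± 0.15, 0.0116), Sik2 (1.38 ± 0.14, 0.0115), Sik3 (1.31 ± 0.09, 0.00766), Plk2 (1.10 ± 0.16, 0.0187) and Sgk3 (0.51 ± 0.11, 0.0441). The call of Sgk3 was lost with library totals (0.077), without a filter on low counts (0.0501), in limma (0.0912) and with any library left out. Sik1, with the largest early difference, was close to the threshold by edgeR (0.71 ± 0.17, adjusted p = 0.0555) and passed by DESeq2, as given above. Pim2, Plk3 and Pim3 had 0.30 ± 0.12, 0.29 ± 0.16 and 0.16 ± 0.13 and did not pass. With 1 library left out these ran from 0.16 to 0.45 for Pim2, 0.037 to 0.51 for Plk3 and -0.0018 to 0.33 for Pim3. In each the lowest value came without 3 h replicate 1 and the highest without 3 h replicate 2, where Plk3 was called (adjusted p = 0.0484, edgeR). Both 3 h libraries lay above both 0.5 h libraries for 8 of the 10, all but Plk3 and Pim3, as for 21% of all genes, and below for 0 of the 10, as for 35.4% of all genes. Within libraries numbered 2 the log2 ratio was -0.11 for Pim3 and -0.0093 for Plk3, against 0.27 and 0.39 within those numbered 1. Without either 0.5 h library none of the 10, and none of all genes, was called in this comparison.

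The make-up of each family shifted as single members moved. Summed over the family, the Sik genes reached 31.8 ± 0.61 cRPKM in untreated neurons, 41.4 ± 0.23 after 0.5 h and 85.1 ± 4.8 after 3 h (SD over 2 libraries). Sik1 made up 20.5 ± 2.9% of that sum in untreated neurons, 39.3 ± 1.3% after 0.5 h and 29.4 ± 2.6% after 3 h. It was thus the smallest Sik share at rest and, by a small margin over Sik3 (37.4 ± 1.4%), the largest at 0.5 h. The 0.5 h libraries had 38.42 and 40.23% for Sik1 and 36.43 and 38.39% for Sik3. At 3 h Sik1 was below Sik3 (42.7 ± 3.4%) again. Pim1 made up 6.40 ± 0.67% of the Pim sum in untreated neurons, 5.65 ± 1.0% after 0.5 h and 17.98 ± 2.6% after 3 h, and Pim2 remained the largest part at 46.3 ± 1.8%. Plk2 held 82.7 ± 0.45%, 85.3 ± 0.41% and 91.1 ± 0.17% of the Plk2 and Plk3 sum in untreated neurons, after 0.5 h and after 3 h. Sgk1 held 74.1 ± 3.1%, 74.7 ± 1.7% and 84.6 ± 1.6% of the Sgk1 and Sgk3 sum over the same stages. These shares are descriptions, given with no test.

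**Figure D3:**
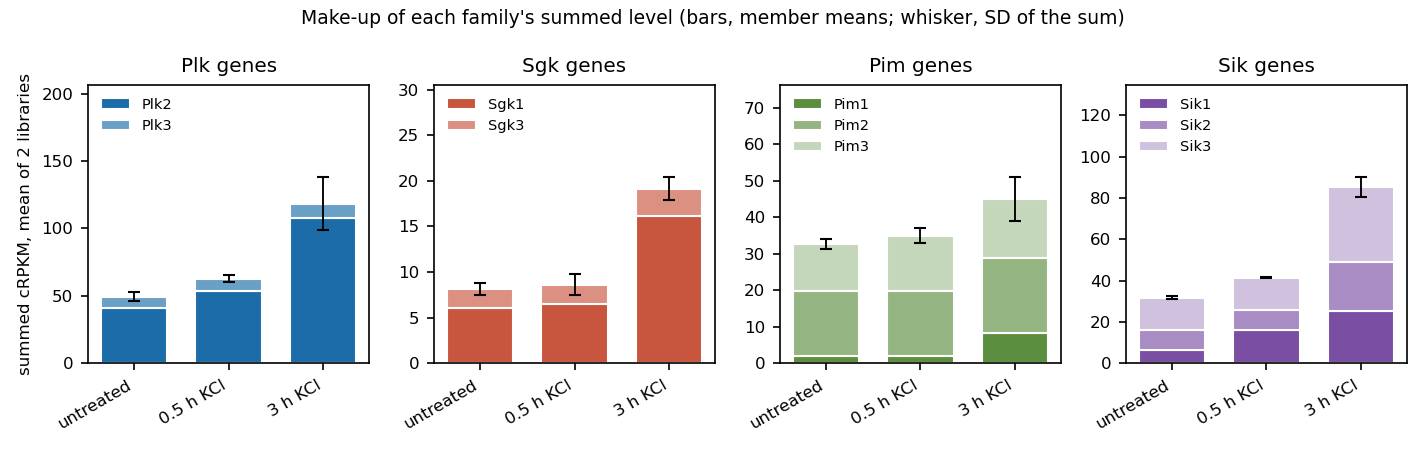
Summed cRPKM of each kinase family, stacked by member, as the mean of 2 libraries in untreated neurons and after 0.5 h and 3 h of KCl; whiskers are the SD of the family sum. The Sik sum goes through 31.8, 41.4 and 85.1 cRPKM over the 3 stages, and the part of Sik1 is widest relative to the rest at 0.5 h.

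Gene size was set beside timing as a feature the choice of members did not use. The annotated gene spans were 11.6 kb for Sik1 and 5.80 kb for Plk2, the genes with the largest early differences, against 116 kb for Sik2, 211 kb for Sik3, 118 kb for Sgk1 and 103 kb for Sgk3. The span of Sgk1 is that of its most upstream start. Its 6 annotated starts have promoters from chr10:21881934-21882233 to chr10:21994416-21994715, so transcripts from the last start cover far less. Which Sgk1 start was used was not tested. The median over 20451 genes was 18.3 kb. Short genes were not all early: Pim1, at 5.36 kb, had no higher level at 0.5 h, and Plk3, Pim2 and Pim3, at 5.31, 5.17 and 3.54 kb, had small differences. Of the 6 genes with an AU-rich core in the 3′ UTR searched, 4 rose at 3 h (Pim1, Plk2, Sgk1 and Sgk3) and 2 did not pass (Plk3 and Pim3). Of the 4 without it there, 3 rose (the Sik genes) and 1 did not pass (Pim2). For Sik2 the 3′ UTR searched had 561 bases, while all its annotated exons together cover 9.54 kb, and other annotated ends were not searched. With 10 genes these are descriptions.

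For each of the 7 risers the nearest genes in pattern were sought among 12147 others with a symbol and at least 1 cRPKM, by the root mean square difference of log2 counts per size-scaled library over the 6 libraries, taken relative to the untreated mean. Plk2 was nearest to Siah2 (0.08) and Ifi30 (0.10), Sgk1 to Grasp (0.11) and Rtl5 (0.11), and Sgk3 to Pop4 (0.03) and Plcd1 (0.03). Pim1 was nearest to Tbc1d1 and Esyt1 (0.10 each), Sik2 to Jmy and Slc16a1 (0.06 each), and Sik3 to Bcor (0.05) and Lats2 (0.06). Sik1 had no neighbour that close: the nearest were Btg2, at 0.31, and Fbxo33, at 0.32. Btg2 had log2 differences of 1.51 at both 0.5 h and 3 h.

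The genes around the kinases were followed in 7 lists of upstream regulators, substrates and relatives. At 0.5 h none of their members passed by edgeR, and at an unadjusted p under 0.05 none was higher or lower. At 3 h, 10 of 90 genes rose and 4 fell over the lists together, or 11.1% and 4.44%, near the 8.71% and 6.84% of all genes tested. The lists therefore did not stand out by these counts, and with so few genes each the counts below describe the lists. The median log2 change ran from -0.25 for other AMPK-related kinases to 0.27 for the Pim list, against -0.02 over all genes, all well below the 1.31 of the 10 kinases. Kinases and lists were both chosen with earlier results of these data known, so that gap is a description. Of the 10 genes that rose, 6 (Crem, Hdac4, Stk11, Myc, Stat3 and Rap1b) were higher in the 3 h library numbered 2, the one with more astrocyte marker RNA, than in that numbered 1, and 4 were lower. The part of that RNA in their changes was not tested.

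Of 16 genes of the Sik pathway, 3 rose and 1 fell at 3 h, with a median log2 change of 0.10. The largest rise was of Crem, a CREB relative whose short form represses CREB targets, with 10.1 and 15.6 cRPKM at 3 h against 2.24 and 2.61 in untreated neurons (2.46 ± 0.22, adjusted p = 0.00634, edgeR). Hdac4, a class IIa deacetylase that Sik kinases phosphorylate, rose by 0.64 ± 0.12 (adjusted p = 0.0276; 0.0604 in limma) and the LKB1 gene Stk11 by 0.39 ± 0.08 (0.035). Crtc1, the main neuronal CREB coactivator held back by Sik kinases, fell to 17.1 and 16.48 cRPKM at 3 h, against 25.5 and 28.3 in untreated neurons (-0.62 ± 0.10, adjusted p = 0.0177). Its relatives Crtc2 and Crtc3 had log2 differences of 0.39 ± 0.13 and 0.09 ± 0.09 and did not pass. Of 12 other kinases of the AMPK group 0 rose and 1 fell, Brsk2, a kinase of neuronal polarity (-0.62 ± 0.15, adjusted p = 0.0481, edgeR; 0.0518 with RLE scaling).

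Of 16 Pim pathway genes 5 rose and 0 fell, with a median of 0.27. Myc, which Pim kinases stabilise, had 15.6 and 22.5 cRPKM at 3 h against 8.97 and 9.24 in untreated neurons (1.11 ± 0.16, adjusted p = 0.0134, edgeR). Stat3, an activator of Pim1 in immune cells, had 33.2 and 46.9 against 17.2 and 21.1 (1.12 ± 0.18, adjusted p = 0.0191). The cell cycle inhibitor and Pim substrate gene Cdkn1a rose by 0.73 ± 0.11 (adjusted p = 0.0136), and the others that rose were Jak2 and Cdkn1b.

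Upstream of Sgk kinases, 1 of 15 genes rose and 1 fell, with a median of -0.05. Prr5l, an mTORC2 partner at 1.89 and 1.57 cRPKM at 3 h against 0.92 and 0.63 in untreated neurons, rose by 1.22 ± 0.30 (adjusted p = 0.0475), and Nr3c2, the mineralocorticoid receptor that induces Sgk1 in kidney, fell by 0.74 ± 0.14 on the log2 scale (adjusted p = 0.0263, edgeR). Of 14 Akt genes and shared substrates, 0 rose and Foxo1, a transcription factor excluded from the nucleus by Akt and Sgk, fell to 7.51 and 6.80 cRPKM, against 12.7 and 12.9 in untreated neurons (-0.78 ± 0.10, adjusted p = 0.0124, edgeR). Of 13 synaptic partners and substrates of Plk2, 1 rose: the small GTPase gene Rap1b (0.79 ± 0.11, adjusted p = 0.013, edgeR). Sipa1l1, which encodes SPAR, had 28.0 and 21.5 cRPKM at 3 h against 30.04 and 33.7 in untreated neurons and did not pass (-0.31 ± 0.17, adjusted p = 0.257). The 4 remaining family members were low, from 0.035 cRPKM for Sgk2 to 4.13 for Plk1 at 3 h, and none passed at either time.

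Leaving out either untreated library ended the 3 h calls of all 14 pathway genes, and 5 rises and 1 fall were called without either 0.5 h library. Without 3 h replicate 1 the lists had 9 rises and 13 falls, and without 3 h replicate 2, 8 and 2.

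**Figure D4:**
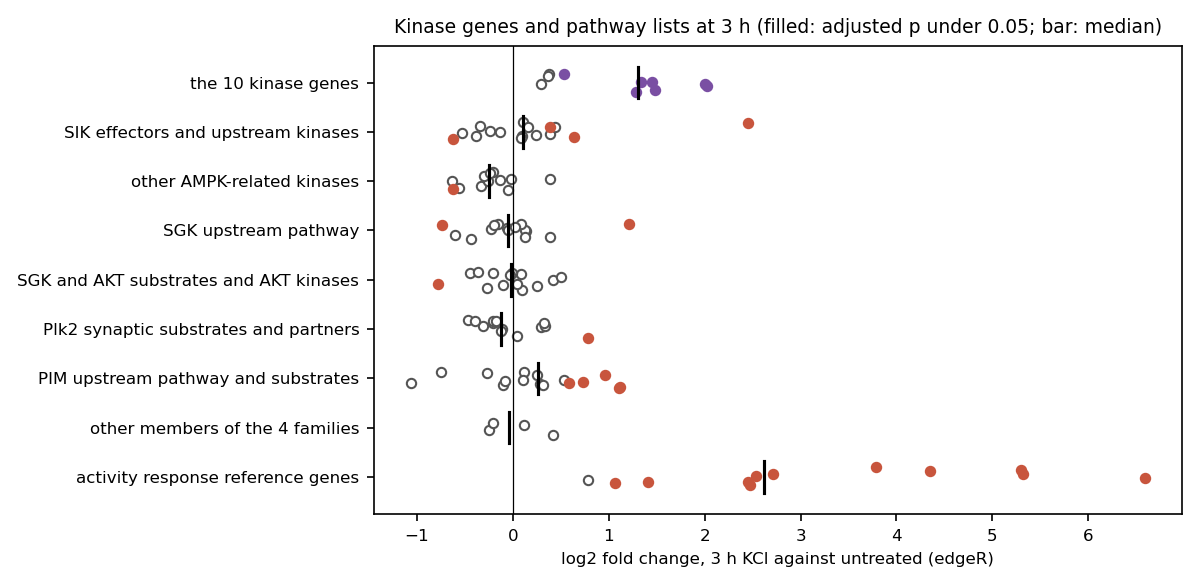
Log2 fold change at 3 h of KCl against untreated neurons for each gene (points) of the 10 kinases and of the pathway lists, with the list median as a bar; filled points passed at an adjusted p under 0.05, and the vertical spread within a row carries no meaning. The 7 filled kinases lie between 0.54 and 2.03, while the medians of the pathway lists lie between -0.25 and 0.27. Kinases and lists were chosen with earlier results of these data known.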

How the data were processed

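For 22667 Ensembl genes each library has 2 deposited values. The first is named cRPKM by the authors, is not defined in the labels and was read as an RPKM. The second is the authors' whole-number read count, without normalization. The submitters' processing notes name mm9 and Bowtie; no source used here gives versions, the annotation or how multi-mapping reads were treated. RNA was prepared per the labels with TriReagent and the TruSeq v2 kit, which does not mark the strand. For 1114 genes no value is listed; GENCODE M21 named 20451 of the other 21553.

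The tool for counts was edgeR 4.0.16 (R 4.3.3), with filterByExpr at a minimum count of 10 (15895 genes) and TMM scaling. Its quasi-likelihood F test used a single model of the 6 libraries, with group as the sole term and 3 residual degrees of freedom. Genes were called at a Benjamini-Hochberg adjusted p under 0.05 over all genes tested. The code was tested on simulated data. Levels are cRPKM, and changes are log2 fold changes with the standard error of the fit. Alternatives were DESeq2 1.42.0, limma 3.58.1 on log2(cRPKM + 1), RLE scaling, library totals, no filter, a replicate block and each library left out.

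The members and lists were chosen with earlier results of these data known. The text names all 10 kinases, up to 3 called genes per list by smallest adjusted p at 3 h, and for each kinase called the 2 nearest genes in pattern (prior count 2). Stk11, Jak2, Cdkn1b, Crtc2, Crtc3, Sipa1l1, Gfap and the overlapping genes were named after their values were seen. The list medians and counts stand in for list tests.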

Additional observations from a re-analysis of the deposited data

Results flagged for a closer look

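The KCl effect, measured from the same untreated libraries, differed between the times for 6 of the 10 kinases, by edgeR's test of 3 h against 0.5 h. Without untreated libraries for each time, a change with time alone cannot be told apart from it. The call of Sgk3 was lost with library totals, without a filter on low counts and in limma. The log2 effect at 3 h exceeded that at 0.5 h by 2.14 for Pim1, 1.41 for Sgk1, 1.38 for Sik2, 1.31 for Sik3, 1.10 for Plk2 and 0.51 for Sgk3. With 2 libraries a group, single libraries could not be examined as outliers.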

How the results depend on the processing

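The 7 kinase calls at 3 h numbered 6 to 7 under every other scaling, filter or test, and 0 to 9 with 1 library left out. Against 0.5 h the 6 calls numbered 5 to 7, and 0 to 6 with 1 library left out. At 0.5 h DESeq2 called 1 kinase; with 1 library left out 0 were called.

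Replicate numbers recur in every group, without a stated culture or day. Differences between replicates 1 and 2 correlated across genes with r = 0.92 (untreated and 0.5 h), 0.57 (untreated and 3 h) and 0.65 (0.5 h and 3 h), a hint from the data and not from the design. With the replicate block, kinase calls were 0 at 0.5 h, 7 at 3 h and 7 between the times, the added one being Sik1 (adjusted p = 0.0146, edgeR). Over all genes the block called 13 higher at 0.5 h, 2963 higher and 2955 lower at 3 h, and 2477 and 2484 between the times; in the pathway lists it called 23 higher and 15 lower.

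DESeq2 called 35 higher and 2 lower over all genes at 0.5 h, 2275 and 1867 at 3 h, 1942 and 1606 between the times, and 18 and 8 in the lists, where the reported test gave 6 and 0, 1384 and 1088, 1015 and 774, and 10 and 4. No filter gave 13 higher at 0.5 h, and library totals 7 lower in the lists; library totals moved the median of all genes to -0.10 between the times. With 1 library left out the counts over all genes ran from 0 to 6 higher at 0.5 h, 34 to 1924 higher and 4 to 1815 lower at 3 h, and 0 to 1527 higher and 0 to 1388 lower between the times; the lists had 0 to 9 higher and 0 to 13 lower. The cause was not tested.

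Differences near 0 changed sign. At 0.5 h Pim2 was at 0.0084 with library totals and 0.0077 in limma, and Sik3 at 0.00037 and 0.00098. With 1 library left out the 0.5 h values ran from -0.075 to 0.19 for Sgk1, -0.027 to 0.084 for Sgk3, -0.27 to 0.028 for Pim1, -0.060 to 0.029 for Pim2, -0.19 to 0.10 for Sik2 and -0.063 to 0.021 for Sik3, and between the times from -0.0018 to 0.33 for Pim3. At 3 h no kinase changed sign. The alternatives for the pathway lists were chosen after seeing the data.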
